A study of Mus with 6 samples.

Results

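RNA levels in whole hippocampus were examined for 9 genes of leukocyte adhesion. They are the ligands Vcam1, Icam1, Icam2 and Icam5, the selectins Sele and Selp, and the integrin subunits Itga4, Itgb1 and Itgal. The rows were chosen by symbol and mean level: a gene was represented by the row of the deposited table that carries its symbol alone, and where a gene had several such rows, by that with the highest mean over the 6 arrays. All 8 genes found in this way had 1 row, so the mean levels made no choice among rows. Selp was not analysed here, since the array annotation used here names it on 0 rows, alone or with other genes. The 8 genes stand among 19938 genes with a row of their own symbol. They were proposed with earlier results of these arrays in view, and the position of a gene at the top of the list is therefore no independent support for its change.

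The hippocampus of 3 control mice and 3 mice subjected to forced swim stress (FSS) was analysed on Affymetrix Mouse Gene ST arrays, with the RNA of 1 mouse on each array. All were male C57BL/6JJmsSlc mice with no transgene named, 10 to 11 weeks of age by the labels. FSS mice swam for 11 min on each of 5 days in water of 25 °C and 25 cm depth, and control mice were not stressed. The hippocampus was collected days after the last swim and after a tail suspension test, so the arrays show a state some time after the stress. The paper states that the mice in its plot of the FSS array results were picked at random. By its account, not every mouse analysed by array in that experiment was used for the plot. Arrays beyond those described here were not analysed, and their effect on the results was not tested. The values are log2 levels made by robust multi-array averaging (RMA), which removes background, equalises the distributions of the arrays and combines the probes of each gene. A difference of levels is a log2 fold change.

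Leukocytes in the blood slow down on selectins, which bind sugars on the passing cell, and then stop when their integrins bind ligands of the immunoglobulin superfamily on endothelial cells. VCAM1 is bound by the integrin of the α4 subunit (Itga4) and the β1 subunit (Itgb1), and ICAM1 and ICAM2 are bound by LFA-1, whose α subunit is Itgal. Cytokines such as TNF and IL-1β act through NF-κB to raise VCAM1, ICAM1 and E-selectin (Sele) on endothelium, and in the healthy brain few leukocytes cross the vessel wall. ICAM5 (telencephalin) differs from its relatives in that it is carried by excitatory neurons of the forebrain, on their dendrites.

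Over all 21789 rows with 1 symbol, the limma fit put 0 past an adjusted p of 0.05 (its minimum was 0.872) and 1121 past an unadjusted p of 0.05. The medians of the 6 arrays lay between 7.32 and 7.35 and their SDs between 2.22 and 2.27 (n = 28944 rows). The excitatory neuron genes of the hippocampus that were checked lay high on these arrays, with Camk2a at percentile 99.9 and the granule cell gene Prox1 at percentile 85.7 of all rows. All 12 of them lay above the median level. With 3 mice in each group, no two-sided exact permutation test can go below p = 0.1.

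Vcam1 was the only gene of the 8 that passed an unadjusted p of 0.05, and it was higher in FSS mice. Its log2 level was 8.80, 8.68 and 8.65 in FSS mice 1, 2 and 3 and 8.43, 8.36 and 8.45 in control mice 1, 2 and 3. Every FSS mouse thus lay above every control mouse, and the lowest FSS mouse was farther from the highest control mouse than the control mice were from each other. FSS mice had a mean of 8.71 ± 0.077 (SD, n = 3), and control mice one of 8.42 ± 0.045 (SD, n = 3). The log2 fold change was 0.29 (standard error 0.054, 95% interval 0.17 to 0.42), which is a 1.23-fold difference. Its unadjusted p from limma was 0.00108 and its adjusted p over all rows 0.872, so the change did not pass the correction. By unadjusted p, Vcam1 stood at rank 25 of the 21789 rows. A two-sided exact permutation test of the means gave p = 0.1, its lower limit here. The fold change lay below the 0.5 that the methods of the study ask for on the log2 scale, so Vcam1 was not called at those thresholds.

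**Figure D1:**
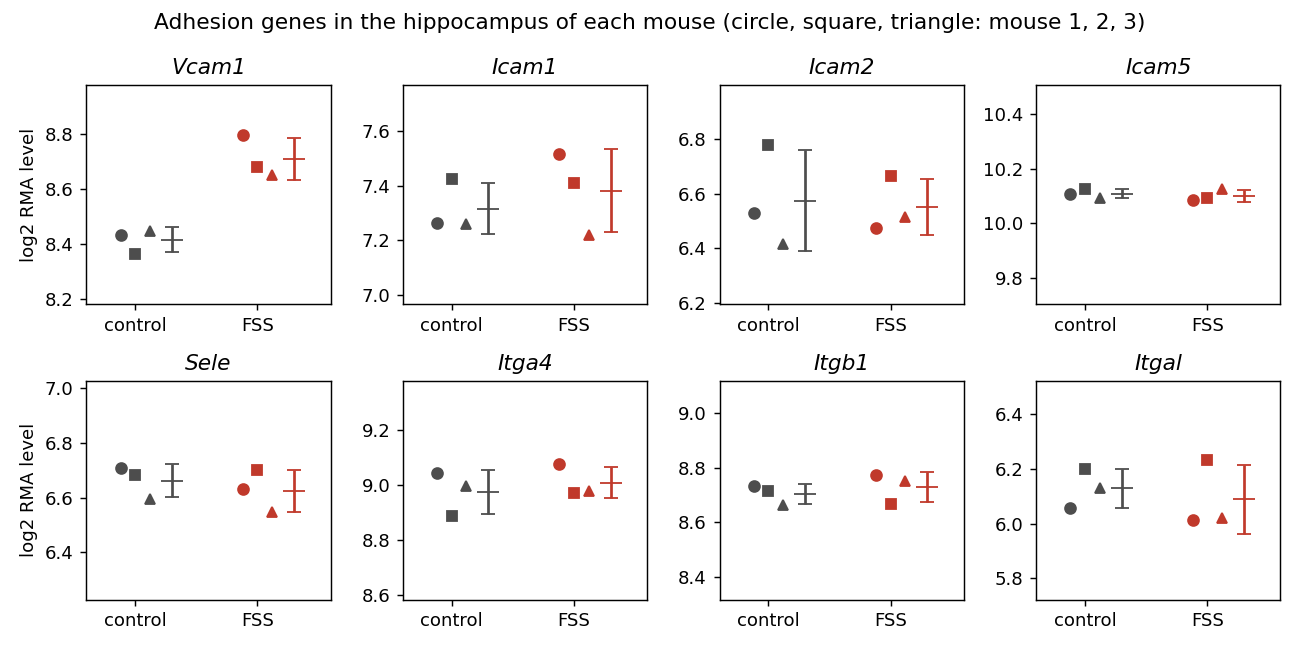
Log2 RMA level (y axis, the same span of 0.8 in each panel) of the 8 adhesion genes in control mice (grey) and FSS mice (red). Each symbol is a mouse and each bar a group mean ± SD, and only in the Vcam1 panel do the groups not overlap, with FSS mice at 8.65 to 8.80 and control mice at 8.36 to 8.45.

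Of the 8 genes, 1 passed an unadjusted p of 0.05 upward and 0 passed downward, against 5.14% of all rows in either direction (2.49% higher and 2.66% lower). The groups did not overlap for 1 of the 8, with FSS mice above, against 10.3% of all rows (6.02% with FSS mice above and 4.25% with FSS mice below). At the thresholds of the methods, 0 of the 8 were called, against 0.0688% of all rows. The fold change lay above 0 for 4 genes and below 0 for 4, and its median was 0.0092 on the log2 scale, beside 0.0049 over all rows.

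The other endothelial ligands did not pass. Icam1, the ligand of LFA-1 that cytokines induce, had log2 levels of 7.52, 7.41 and 7.22 in FSS mice 1, 2 and 3 and of 7.26, 7.42 and 7.26 in control mice. FSS mouse 1 was the highest and FSS mouse 3 the lowest of the 6, so the groups overlapped over the whole range. FSS and control mice differed by 0.066 on the log2 scale (standard error 0.087, adjusted p = 0.973 from limma). Its 95% interval of -0.14 to 0.27 corresponds to 0.907-fold to 1.21-fold, and the log2 fold change of Vcam1 (0.29) lay just above it. FSS mouse 1 carried the highest level of both Vcam1 and Icam1.

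Icam2, a ligand of LFA-1 that resting endothelium carries, had log2 levels of 6.48, 6.67 and 6.51 in FSS mice and 6.53, 6.78 and 6.42 in control mice. Mouse 2 was the highest of each group, and the FSS mice lay within the range of the control mice. The difference was -0.023 on the log2 scale (standard error 0.10, adjusted p = 0.994 from limma), with a 95% interval of -0.26 to 0.22.

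Icam5, the neuronal member of the family, was the least variable of the 8 genes. Its log2 levels were 10.09, 10.09 and 10.13 in FSS mice and 10.11, 10.13 and 10.09 in control mice, with an SD of 0.022 and 0.016 (n = 3 each). The groups overlapped, and the log2 fold change of -0.0068 had a 95% interval of -0.10 to 0.087 (limma adjusted p = 0.994), or 0.932-fold to 1.06-fold. Icam5 was thus bounded more tightly than any of the other 7 genes. In the RefSeq annotation of GRCm38.p6, Icam1, Icam4 and Icam5 follow one another on chromosome 9.

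Sele, the selectin that cytokines induce on endothelium, had log2 levels of 6.63, 6.70 and 6.55 in FSS mice and 6.71, 6.68 and 6.59 in control mice. The groups overlapped, with a log2 fold change of -0.037 (standard error 0.057, 95% interval -0.17 to 0.10, limma adjusted p = 0.978). Sele, Icam1, Icam2 and Itgal lay below the median level of all rows, at percentiles 33.9, 45.1, 32.4 and 25.1, and values of such dim rows can be held up by background. The other 4 genes lay above it, Vcam1 at percentile 64.5.

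None of the integrin subunits passed. Itga4, the α subunit of the receptor of VCAM1, had log2 levels of 9.08, 8.97 and 8.98 in FSS mice and 9.04, 8.89 and 8.997 in control mice. Its partner Itgb1, which pairs with many α subunits and is made by most cell types, had 8.77, 8.67 and 8.75 in FSS mice and 8.73, 8.71 and 8.66 in control mice. For both the groups overlapped, and the log2 fold change was 0.033 for Itga4 (95% interval -0.10 to 0.17, limma adjusted p = 0.978) and 0.025 for Itgb1 (95% interval -0.089 to 0.14, limma adjusted p = 0.981). Neither interval reached the log2 fold change of 0.29 of Vcam1.

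Itgal, the α subunit of LFA-1, which leukocytes carry, had log2 levels of 6.01, 6.23 and 6.02 in FSS mice and 6.06, 6.20 and 6.13 in control mice. FSS mouse 2 was the highest and FSS mouse 1 the lowest of the 6. The log2 fold change was -0.040 (standard error 0.074, 95% interval -0.22 to 0.13, limma adjusted p = 0.978).

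**Figure D2:**
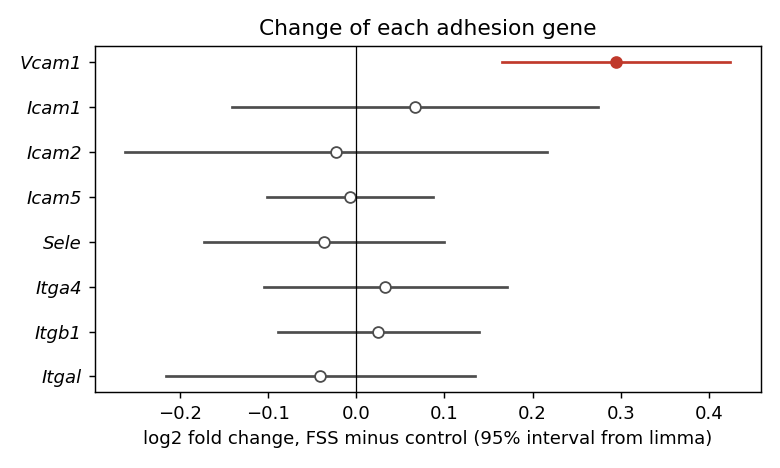
Difference of log2 levels between FSS and control mice (x axis) for each adhesion gene (y axis), with limma's 95% interval as a line; the filled red circle marks an unadjusted p under 0.05. The interval of Vcam1 (0.17 to 0.42) lies above 0, and those of the other 7 genes include 0.

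The change of Vcam1 kept its direction and passed the unadjusted threshold in all 15 other settings tried. Since its groups do not overlap, leaving out a mouse could not reverse its direction. Several settings returned the same log2 fold change, and the mean of all rows cannot differ for a gene with 1 row. The settings share the same arrays and are not independent support. Leaving out 1 mouse at a time, the log2 fold change of Vcam1 was lowest without FSS mouse 1 (0.25) and highest without FSS mouse 3 (0.32). The arrays differed in the SD of their values, and the difference for Vcam1 was 0.28 among the 3 arrays of narrower spread (FSS mouse 2 against control mice 1 and 2) and also 0.28 among the 3 wider ones (FSS mice 1 and 3 against control mouse 3). Each of these sets has 1 mouse on one side, so they give values without a test, and those of Itgal were 0.10 and -0.11 and those of Itgb1 -0.059 and 0.098. The log2 fold change of Icam1 fell to -0.00097 without FSS mouse 1 and was 0.15 without FSS mouse 3.

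**Figure D3:**
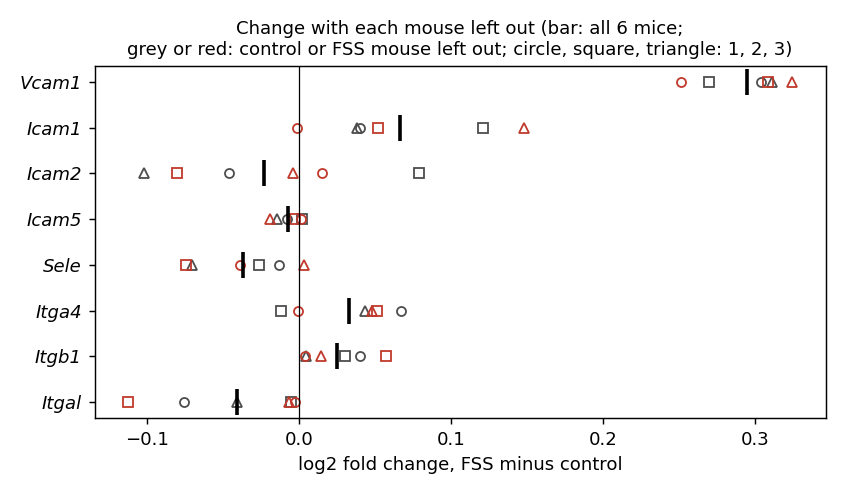
Difference of log2 levels between FSS and control mice (x axis) for each adhesion gene (y axis) with all 6 mice (black bar) and without each mouse in turn (open symbols, grey for a control mouse left out and red for an FSS mouse left out). The values of Vcam1 stay between 0.25 and 0.32, and those of the other genes lie between -0.11 and 0.15.

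The rest of the adhesion pathway was described by 8 lists of genes with other roles, chosen with earlier results of these arrays known. Of their 121 measured genes, 8 were higher and 4 were lower in FSS mice at an unadjusted p of 0.05 from limma and 109 did not pass, that is 9.92% passing against 5.14% of all rows. All of these 12 had an adjusted p of 0.943. The median log2 fold change of the 121 genes was 0.017. The number of higher genes was 3 without FSS mouse 1, 4 without control mouse 2 and 12 without control mouse 1, and the number of lower genes was 2 without FSS mouse 1 or control mouse 2.

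Among ligands and junction proteins, F11r, which encodes the junctional adhesion molecule JAM-A, was the gene that passed of 13. Its log2 level was 7.23, 7.23 and 7.32 in FSS mice and 7.07, 7.15 and 7.04 in control mice, so that the groups did not overlap, and its log2 fold change was 0.17 (standard error 0.050). Cd226, a receptor of lymphocytes, had the largest fold change of this list, -0.18, and did not pass (limma unadjusted p = 0.0589). It was -0.10 when FSS mouse 3 was left out.

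Of 23 further integrin subunits, 2 were higher and 0 were lower. Itga6, a laminin receptor subunit of endothelium and other cells, was 8.19, 8.11 and 8.13 in FSS mice and 7.99, 7.90 and 8.01 in control mice, with a log2 fold change of 0.18 (standard error 0.050). Itgam, the α subunit of the integrin Mac-1 and a gene of microglia and myeloid cells, was higher by 0.24 on the log2 scale (standard error 0.10), or by 0.14 when control mouse 2 was left out. The groups of Itgam overlapped, with 7.46 in the lowest FSS mouse and 7.48 in the highest control mouse, and it did not pass when control mouse 2 or 3 or FSS mouse 1 or 2 was left out.

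Of 17 selectin ligands and enzymes that make their sugars, 2 were higher and 0 were lower. Podxl, a sialomucin of vessels, had a log2 fold change of 0.14, and Gcnt1, an enzyme that branches O-linked sugars for selectin binding, had one of 0.13. Podxl passed in 6 of 15 other settings, was 0.091 when FSS mouse 2 was left out, and of the 6 omissions of a mouse only in that of FSS mouse 3. Gcnt1 passed in 9 of 14, and did not without control mouse 3, FSS mouse 1 or FSS mouse 3. Of 18 genes of integrin activation none passed, and Fyb, an adaptor of leukocytes, had the largest change with a log2 fold change of 0.12 (limma unadjusted p = 0.172), which was 0.035 when control mouse 2 was left out.

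Of 10 genes that link or cluster adhesion molecules at the endothelial surface, 2 were higher and 1 was lower. Cd9, a tetraspanin, had a log2 fold change of 0.23 and Cav1, the main protein of caveolae, one of 0.22. Neither passed without control mouse 3 or FSS mouse 1, nor did Cd9 without control mouse 1 or FSS mouse 3 and Cav1 without control mouse 2 or FSS mouse 2. Ezr, which encodes ezrin, a linker of membrane proteins to actin, was lower with 8.94, 8.81 and 8.88 in FSS mice against 8.98, 9.06 and 9.08 in control mice, a log2 fold change of -0.16 (standard error 0.053), and did not pass when control mouse 2 or 3 or FSS mouse 2 was left out.

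Cytokines and the NF-κB pathway, the known inducers of VCAM1 and ICAM1, held 2 lower genes and 0 higher genes of 16. Il1b, the gene of IL-1β, was 6.03, 6.09 and 6.04 in FSS mice and 6.40, 6.39 and 6.22 in control mice. Every FSS mouse lay below every control mouse, and the log2 fold change of -0.28 (standard error 0.060) passed in all 14 other settings in which Il1b was measured. Tnf was also lower, with 5.77, 5.83 and 5.85 in FSS mice, 6.22, 6.10 and 5.88 in control mice and a log2 fold change of -0.25 (standard error 0.088). Both lay among the dimmer rows, at percentiles 26.5 and 22.4 of level, and Tnf did not pass without control mouse 1, control mouse 2, FSS mouse 1 or FSS mouse 2.

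None of 6 sheddases, the proteases that release adhesion molecules from the cell surface, passed. The gelatinase gene Mmp9 had the largest fold change, -0.16 on the log2 scale (limma unadjusted p = 0.0781). Of 18 chemokines and chemokine receptors, 1 was higher and 1 was lower. Cx3cr1, the fractalkine receptor of microglia and monocytes, had a log2 fold change of 0.17, and Cxcr3, a receptor of activated T cells, one of -0.22. Cx3cr1 did not pass when control mouse 2 or 3 or FSS mouse 2 was left out, and Cxcr3 did not pass without any 1 of the FSS mice and had a log2 fold change of -0.12 when control mouse 2 was left out. Of the 12 genes that passed over all 8 lists, F11r, Itga6 and Il1b passed in every other setting in which they were measured, and the other 9 did not in at least 1. Of the 12, 6 lay below the median level, among them F11r (percentile 42.4) and Il1b. The setting that leaves out dim genes therefore did not include F11r or Il1b.

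**Figure D4:**
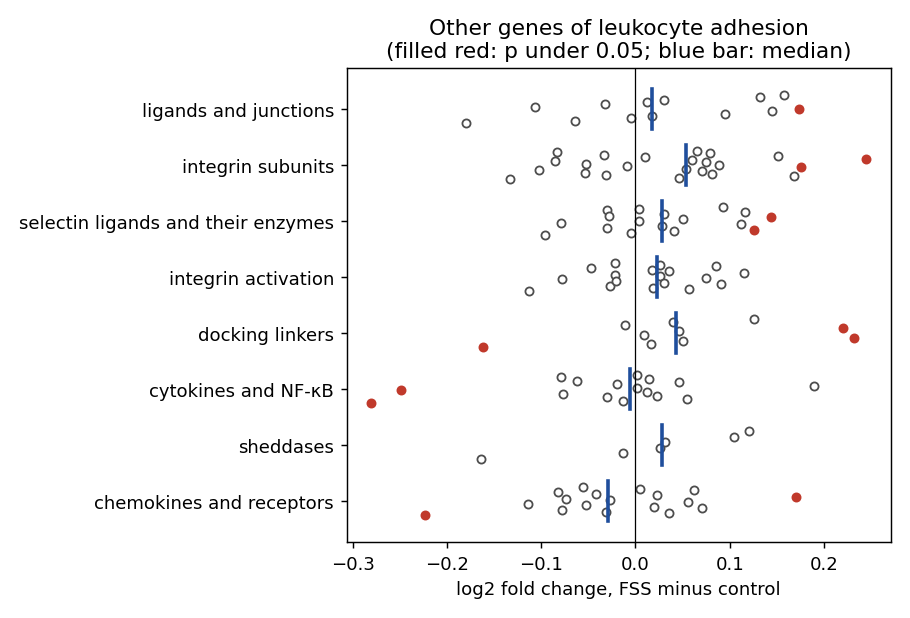
Difference of log2 levels between FSS and control mice (x axis) for 121 genes in 8 roles of leukocyte adhesion (y axis). Circles are genes, filled red below an unadjusted p of 0.05, and the median of each list, a blue bar, lies between -0.029 for chemokines and receptors and 0.053 for integrin subunits.

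Markers of the cell types that could carry these genes were set beside Vcam1. In whole hippocampus, more cells of a type and more RNA per cell cannot be told apart. Beside the counts of markers below, 2.49% of all rows were higher and 2.66% were lower at an unadjusted p of 0.05 from limma. Of 14 measured endothelial genes, 0 were higher and 2 were lower in FSS mice, namely the transporter genes Mfsd2a (log2 fold change -0.32) and Slc2a1 (log2 fold change -0.18), while 8 of the 14 lay above 0. Slc2a1 passed in 7 of 15 other settings and had a log2 fold change of -0.11 when control mouse 3 was left out, and Mfsd2a passed in 10 of 15. The groups of Mfsd2a overlapped, with 10.19 in FSS mouse 3 and 10.16 in control mouse 1, and those of Slc2a1 did not. Emcn, a sialomucin of endothelium chosen after its values were seen, lay at 8.39, 8.54 and 8.34 in FSS mice and 8.32, 8.002 and 8.29 in control mice. Its groups did not overlap, and its log2 fold change of 0.22 did not pass (limma unadjusted p = 0.0623). Emcn passed in 3 of 15 other settings, and its log2 fold change was 0.12 when control mouse 2 was left out. The mean level of the endothelial list was 8.46 to 8.57 in FSS mice and 8.46 to 8.55 in control mice, so the groups overlapped. Of 8 mural cell genes 1 was higher, Acta2, the smooth muscle actin (log2 fold change 0.28), and the mean of the list was 8.03 to 8.15 in FSS mice and 7.92 to 8.05 in control mice.

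Of 11 marker lists, those of astrocytes, microglia, meninges and excitatory neurons had means that did not overlap between the groups, with FSS mice above. Of single rows, 6.02% did not overlap with FSS mice above. The means of the adhesion list of ligands and junction proteins did not overlap either (8.191 to 8.204 in FSS mice, 8.135 to 8.187 in control mice). Of 8 astrocytic genes 3 were higher, namely the water channel gene Aqp4 (log2 fold change 0.33), Gfap (0.16) and the connexin gene Gja1 (0.11), and the aldolase gene Aldoc was lower (-0.10). Aqp4 passed in all 15 other settings, and Gfap and Gja1 passed in 7 each and not when control mouse 2 was left out, and Aldoc passed in 6. The mean of the list was 10.63 to 10.70 in FSS mice and 10.53 to 10.61 in control mice. Of 12 microglial genes 4 were higher, among them the purinergic receptor gene P2ry13 (log2 fold change 0.32) and Gpr34 (log2 fold change 0.25), and 0 were lower. Gpr34 lay among the dimmer rows, at percentile 21.6 of level. The mean of the microglial list was 8.44 to 8.52 in FSS mice and 8.22 to 8.40 in control mice. That of 8 meningeal genes, of which 1 was higher, was 7.901 to 8.14 in FSS mice and 7.83 to 7.896 in control mice, a narrow gap. The mean of the 12 excitatory neuron genes, of which Prox1 was higher (log2 fold change 0.15), was 10.70 to 10.73 in FSS mice and 10.61 to 10.69 in control mice. Of 8 choroid plexus genes only Ttr was higher, and the list means overlapped. The part of these cell types in the level of Vcam1 was not tested.

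Genes of lymphocytes lay below the median level of all rows. Of 10 measured lymphocyte genes 0 passed, and their levels ranged from percentile 5.52 for the B cell gene Cd79a to percentile 39.7 for the T cell gene Cd3e. The mean of the lymphocyte list was 5.45 to 5.60 in FSS mice and 5.50 to 5.66 in control mice. Of 8 genes of neutrophils and monocytes 1 was higher and 1 was lower, and the mean of the list was 5.79 to 5.90 in FSS mice and 5.76 to 5.97 in control mice, so the groups of both lists overlapped.

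**Figure D5:**
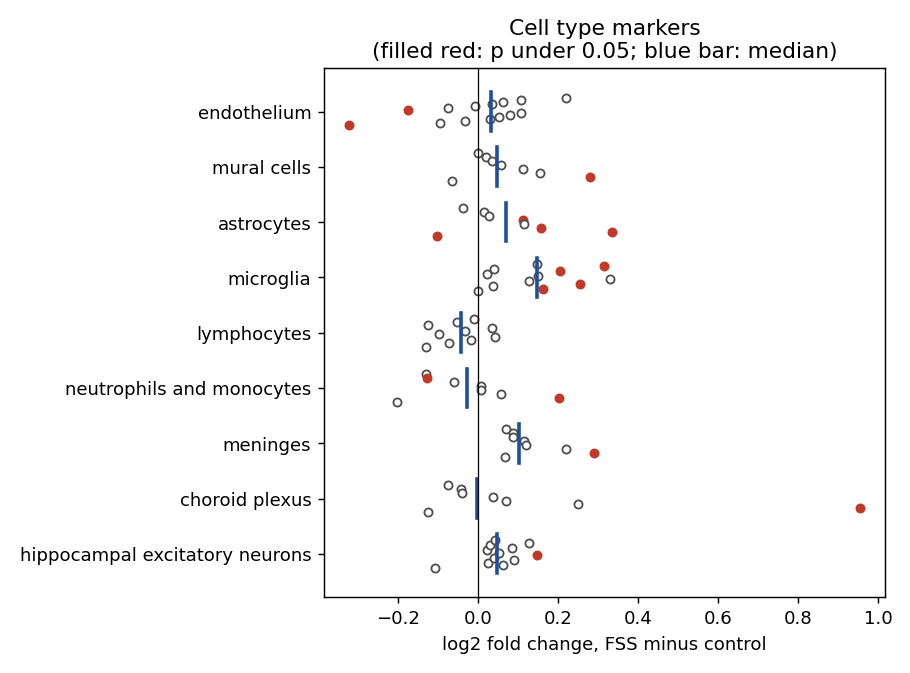
Difference of log2 levels between FSS and control mice (x axis) for markers of 9 cell types (y axis). Circles are genes, filled red below an unadjusted p of 0.05, and the median of each list, a blue bar, was 0.15 for microglia, 0.032 for endothelium and -0.043 for lymphocytes.

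The study chose Ttr from its array comparison of FSS and control mice and reported it higher in FSS mice by RT-qPCR and Western blotting. In its other experiments it measured Ttr and Lcn2 beside Icam1 and Vcam1. After TTR overexpression it reported more LCN2, ICAM1 and VCAM1 protein in the hippocampus. In mice susceptible to repeated social defeat it reported more Lcn2, Icam1 and Vcam1 mRNA. Neither of these experiments used forced swim stress. Ttr and Lcn2 were also read on the present arrays. Ttr, the carrier of thyroid hormone, had log2 levels of 9.74, 8.9995 and 9.21 in FSS mice and 8.62, 8.91 and 7.56 in control mice. Its log2 fold change was 0.95 (limma unadjusted p = 0.0335, adjusted p = 0.943), which is past the thresholds of the methods with the unadjusted p. Ttr passed the unadjusted threshold in 11 of 15 other settings. FSS mouse 1 was the highest for Ttr as for Vcam1 and Icam1. The change of Ttr was 0.55 when control mouse 3 was left out and did not pass when FSS mouse 1 or 3 was left out. Lcn2, the gene of the inflammatory protein lipocalin 2, had levels of 5.70, 5.68 and 5.60 in FSS mice and 5.85, 6.03 and 5.74 in control mice. Every FSS mouse lay below every control mouse for Lcn2, at a dim level (percentile 19.8), with a log2 fold change of -0.22 (limma unadjusted p = 0.0287, adjusted p = 0.943), and it did not pass without control mouse 1, control mouse 2, FSS mouse 2 or FSS mouse 3 (log2 fold change -0.14 without control mouse 2).

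The genes whose levels followed Vcam1 most closely over the 6 arrays, among 9856 genes above the median level, were Lrp10, a lipoprotein receptor-related gene (Pearson's r = 0.995), Zfp457, a zinc finger gene (r = 0.993), and Zeb1, a transcription factor (r = 0.982). For Icam1 they were Rnasek (r = 0.988), Pex16 (r = 0.978) and Mrps35 (r = 0.977), and for Icam5 Slc25a26 (r = 0.983), Ttc38 (r = 0.981) and Sorbs3 (r = 0.976). The 3 sets had no gene in common. These values rest on 6 arrays and were picked as the highest over all these genes, so they describe these mice only.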

How the data were processed

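RNA from the hippocampus of 3 control and 3 FSS mice was hybridised to 1-colour Mouse Gene ST arrays. The deposited values are log2 levels for which the authors ran RMA, in the Affymetrix Expression Console according to the submitters' processing notes. The scanner's own values were not analysed here. Labels and paper give unequal amounts of labeled RNA. Of 28944 rows, 21789 carry 1 gene symbol in the array annotation, 1621 carry several and 5534 are unnamed here. The gene IDs of all 8 measured members matched RefSeq genes of GRCm38.p6. RefSeq was used for names and for which genes neighbour each other, and no coordinates or sequences are given, since no genome build is named for the rows.

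In R 4.3.3, a linear model of group without covariates was fitted to the 21789 rows by limma 3.58.1 with moderated variances, and p was adjusted over all of them by the Benjamini-Hochberg method. The thresholds of the methods are a change of more than 0.5 on the log2 scale, up or down, and p under 0.05. The members and lists were chosen with earlier results of these data known. The genes named are all members, the list genes with p under 0.05, the gene of each adhesion list with the largest change, Ttr, Lcn2 and the 3 genes most like Vcam1, Icam1 and Icam5. Marker genes named were chosen after their values were seen. The fit was run on simulated independent rows with known log2 changes of 0.5 or more. This checked only that the size of these changes was returned, and no change as small as that of Vcam1 was simulated. Depth does not apply to arrays, and their number limits the precision. The alternatives were other normalizations and variance models, weights for the arrays, leaving out dim genes, the mean of all rows of a symbol, blocks by replicate number and by array spread, and leaving out each mouse.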

Additional observations from a re-analysis of the deposited data

How the results depend on the processing

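Over the 15 alternatives, the number of the 8 members that passed an unadjusted p of 0.05 stayed at 1, Vcam1 in each, and the number past the thresholds of the methods stayed at 0. The adjusted p of Vcam1 ranged from 0.456 to 0.9998. Leaving out each mouse, the log2 fold changes were 0.25 to 0.32 for Vcam1, -0.00097 to 0.15 for Icam1, -0.10 to 0.079 for Icam2, -0.019 to 0.0019 for Icam5, -0.074 to 0.0031 for Sele, -0.011 to 0.067 for Itga4, 0.0038 to 0.057 for Itgb1 and -0.11 to -0.0024 for Itgal, and 5 members changed sign in some setting. Icam2 also turned to 0.045 with the arrays split by spread as a block. The cause was not tested. Of the 121 pathway genes, 4 were higher and 2 lower with the variance of each gene alone, and 10 were higher and 1 was lower without dim genes, where 56 were left. Leaving out each mouse gave 3 to 12 higher and 2 to 6 lower. Whether the replicate numbers of the labels pair the mice was not settled. The deviations of same-numbered mice correlated at -0.048, 0.14 and 0.24. FSS mice 2 and 3 correlated best with the control mouse of their own number, though FSS mouse 2 reached 0.13 with control mouse 1. FSS mouse 1 correlated best with control mouse 3 (0.060). With the replicate number as a block, Vcam1 kept its log2 fold change of 0.29 (unadjusted p = 0.00262), and 7 pathway genes were higher and 6 lower. The number of arrays and the low level of 4 members limit what can be seen of small changes.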
